A study of Mus musculus with 2 samples.

Results

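The cells described here are Retnlg Ccr3 eosinophil-like granulocytes among immune cells of mouse gliomas. They were chosen by transcript counts in single cells: at least 3 unique molecular identifiers (UMIs, each standing for 1 captured RNA molecule) summed over Retnlg, Ccr3 and Siglecf, with at most 1 UMI in each of the sums S100a8+S100a9, Cd3d+Cd3e+Cd3g and C1qa+C1qb+C1qc. Of 15723 cells kept in all, 202 met this rule. The PBS library held 184 of them among 7756 cells and the EM library 18 among 7967. The libraries were 1 from a tumour sample treated with PBS (phosphate-buffered saline) and 1 from a tumour sample treated with EM, whose title carries 72 h. Both held living CD45.2+CD45.1- cells sorted from glioma, called endogenous by the submitters, and were prepared on the BD Rhapsody platform, where each cell shares a microwell with a barcoded bead. What EM stands for, the mouse strain and age, the glioma model and the number of animals per library were not given in the sources used here.

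Eosinophils are granulocytes that mature in the bone marrow under interleukin-5 and the transcription factor GATA1. They enter tissues along eotaxin gradients through the chemokine receptor Ccr3, and mouse eosinophils carry the inhibitory lectin Siglecf. Neutrophils, the other abundant granulocyte, depend on the receptor Csf3r, follow chemokines through Cxcr2 and carry large amounts of the calcium-binding proteins S100a8 and S100a9. Retnlg, a small secreted protein of the resistin family, is best known from mouse neutrophils, so it marks no lineage by itself. Ccr3 is also a basophil gene, and the rule set no limit on basophil genes.

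The PBS library held 43538431 UMIs in its kept cells and the EM library 19302929, with medians of 4303 and 2016 UMIs per cell. The eosinophil-like cells were much shallower than the rest. Their median was 866 UMIs (range 501 to 3997) and 593.5 genes in PBS, and 923 UMIs (541 to 4618) and 624 genes in EM. Under 1000 UMIs lay 60.3% of the PBS and 55.6% of the EM eosinophil-like cells, against 9.05% and 10.2% of all kept cells. They held 0.417% of the kept PBS UMIs and 0.113% of the EM ones. No matrix held a barcode under 500 UMIs, so cells below that depth were not seen. Each condition had 1 library, so no difference below has a replicate check, and intervals are exact 95% intervals that cover counting error only. There were 66 barcode sequences in both libraries, and 3 of them belonged to eosinophil-like cells. The PBS and EM eosinophil-like cells also differed in sex-linked transcripts: Ddx3y, a Y-linked gene, had 81 UMIs in PBS and 0 in EM, and Xist, the transcript of the inactive X chromosome, had 1 and 7. The same pattern stood in all other cells, with 191 and 4.46 counts per 1000000 UMIs (CPM) of Ddx3y in PBS and EM, and 10.6 and 384 CPM of Xist. Treatment, sex-linked transcripts, depth and library cannot be told apart in this design.

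The neutrophil genes left a gap at the limit of the rule, and the required genes did not. Among PBS cells that met every other limit, 173 had 0 UMIs of S100a8+S100a9 and 11 had 1, both inside the rule. Just outside it, 8 cells had 2 to 9, and 201 had 10 or more. In EM the numbers were 17, 1, 0 and 0, and no EM cell carried the neutrophil profile of S100a8+S100a9 of 5 or more. For Retnlg+Ccr3+Siglecf, 18 PBS cells lay at 2, just outside, 18 at 3 and 7 at 4, with 59 at 5 to 9 and 100 at 10 or more. The matching EM numbers were 5, 5, 1, 6 and 6. The 18 PBS cells just outside included 6 with a UMI of another eosinophil gene, and the 25 just inside included 10. The 7 PBS cells with 2 to 4 UMIs of S100a8+S100a9 held 1779 CPM of Csf3r, from 14 UMIs. The 11 cells with 1 UMI held 250.1 CPM, from 3 UMIs that all lay in 1 cell.

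**Figure D1:**
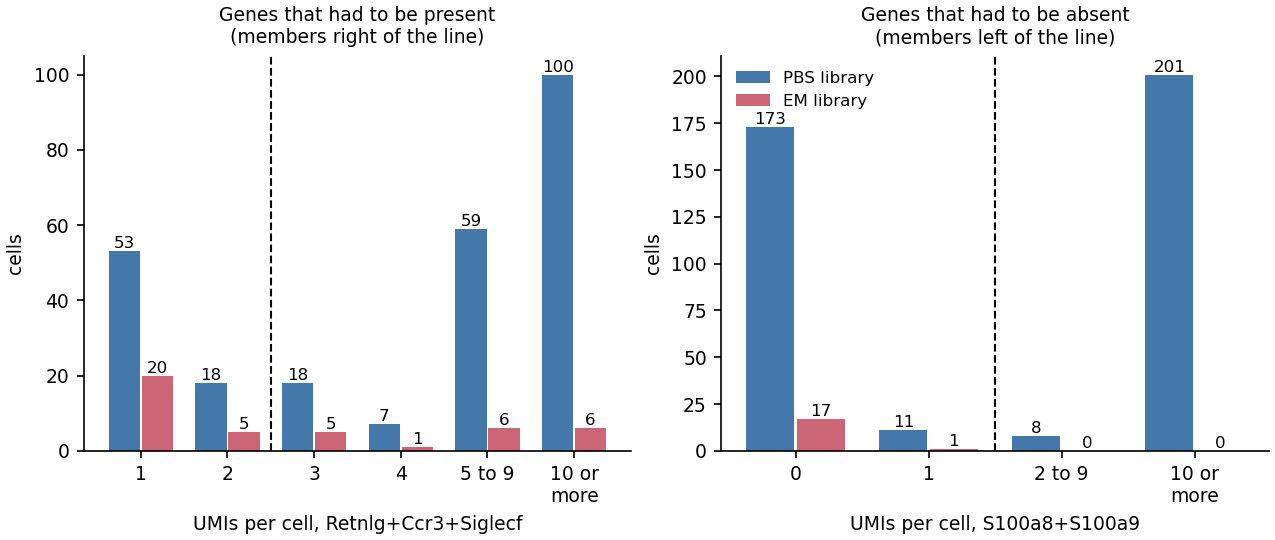
Numbers of cells (vertical axis) by the UMIs per cell of the required genes Retnlg+Ccr3+Siglecf (left; cells at 0 are not drawn) and of the neutrophil genes S100a8+S100a9 (right), each among cells that met every other limit, in the PBS (blue) and EM (red) libraries. The dashed line is the limit of the rule. In PBS, 173 cells lay at 0 and 201 at 10 or more UMIs of the neutrophil genes, with 8 cells at 2 to 9.

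The share of eosinophil-like cells was lower in the EM than in the PBS library. In PBS they were 2.37% of kept cells (interval 2.05 to 2.74), and in EM 0.226% (0.134 to 0.357). The EM shares given here, and the EM depths above, include 1 basophil-marked cell that is described below. The PBS share was 10.5 times the EM share (6.46 to 18.1). With 1 library each, fewer such cells in the tumour and a difference between the sorted samples cannot be told apart. The minimum of 500 UMIs weighed on both shares, since most of these cells lay near it. With 1000 UMIs or more required of every cell, the shares were 1.03% and 0.112%, a ratio of 9.25 (4.46 to 22.2). With a UMI of Ccr3 or Siglecf required, they were 0.799% (62 cells) and 0.188% (15 cells), a ratio of 4.25 (2.39 to 8.04). The size of the difference thus depended on the cells without Ccr3 and Siglecf.

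The 3 required genes contributed unequally, and differently in each library. Retnlg was found in 181 of the 184 PBS cells, with a median of 10 UMIs per cell and a highest value of 76, at 13695 CPM over all of them. In the 18 EM cells its median was 4.5 and its highest value 58. Ccr3 was found in 48 PBS cells (26.1%), with at most 3 UMIs in a cell, and in 13 of the 18 EM cells (72.2%), with at most 4. Siglecf was found in 16 PBS cells (8.70%), with at most 1 UMI, and in 7 EM cells (38.9%), with at most 3. Among 484 PBS neutrophils (S100a8+S100a9 of 5 or more, same Cd3 and C1q limits), Ccr3 was found in 1 cell. Siglecf was found in 27 of these neutrophils (5.58%, interval 3.71 to 8.01), which were deeper, with a median of 1695.5 UMIs. At 500 UMIs per cell its share was 4.89% (2.26 to 9.08) in the PBS eosinophil-like cells and 1.45% (0.583 to 2.96) in neutrophils. Over all UMIs its level was 88.2 and 34.8 CPM. The 184 cells held 50.8% of the Ccr3 but 3.29% of the Siglecf UMIs of the kept PBS cells. Retnlg by itself reached the limit of 3 UMIs in 175 of the 184 PBS cells and 11 of the 18 EM cells. A UMI of Ccr3 or Siglecf was carried by 62 of the 184 PBS cells. It was carried by 14 of the 17 EM cells that remained after 1 basophil-marked cell was set aside. The values in the eosinophil-like cells chose them and are a description.

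That 1 EM cell met the rule through Siglecf but was not an eosinophil-like cell by its other genes. It had 4618 UMIs, 3 of Siglecf and 0 of Ccr3 and Retnlg. It carried 102 UMIs of Mcpt1, 181 of Mcpt2 and 55 of Cpa3, all mast cell protease genes. Of all cells chosen, it alone had 2 or more UMIs of Mcpt8, Cd200r3, Fcer1a, Ms4a2 and Cpa3, so 5.56% of the EM (0.141 to 27.3) and 0% of the PBS cells were basophil-marked. For the 0 of 184, a limit of 3 cells is a share of 1.63%, and the exact interval reaches 1.98%. It was left out of all gene values below, which rest on 184 PBS cells with 181454 UMIs and 17 EM cells with 17246. For a gene with 0 UMIs, a limit of 3 UMIs over the set was used. That limit is 174 CPM in the EM set and 16.5 CPM in the PBS set.

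The promoters of the 3 receptors tied most closely to the eosinophil name are shown because GATA1, whose transcript these cells carried, binds motifs with the core GATA. The windows run from 250 bases before to 50 after the start site in RefSeq (GRCm38.p6), 5′ to 3′ on the gene's strand. The letters GATAA, or TTATC for the other strand, are in capitals. Ccr3 lies at chr9:124021721-124022020 (plus strand), Siglecf at chr7:43351091-43351390 (plus strand) and Il5ra at chr6:106748988-106749287 (minus strand).
Ccr3: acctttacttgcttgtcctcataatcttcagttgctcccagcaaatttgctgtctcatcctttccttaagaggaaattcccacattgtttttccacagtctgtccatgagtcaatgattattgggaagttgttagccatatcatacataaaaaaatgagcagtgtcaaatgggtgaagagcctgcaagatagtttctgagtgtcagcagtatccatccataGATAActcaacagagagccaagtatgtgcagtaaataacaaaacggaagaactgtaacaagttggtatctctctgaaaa
Siglecf: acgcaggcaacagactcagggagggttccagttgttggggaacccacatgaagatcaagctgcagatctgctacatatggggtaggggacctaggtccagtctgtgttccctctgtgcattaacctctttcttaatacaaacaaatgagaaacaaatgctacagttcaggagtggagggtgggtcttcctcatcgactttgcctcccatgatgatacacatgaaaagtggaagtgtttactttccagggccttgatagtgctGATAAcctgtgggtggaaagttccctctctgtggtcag
Il5ra: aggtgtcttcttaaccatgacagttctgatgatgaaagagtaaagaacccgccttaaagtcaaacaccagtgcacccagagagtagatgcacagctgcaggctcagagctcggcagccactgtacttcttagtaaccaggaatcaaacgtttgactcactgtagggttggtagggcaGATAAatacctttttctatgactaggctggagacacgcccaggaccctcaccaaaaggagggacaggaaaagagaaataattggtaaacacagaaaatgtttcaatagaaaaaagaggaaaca
The match lies 29 bases upstream of the start in Ccr3, 73 bases upstream in Il5ra and 12 bases after the start in Siglecf. Of 11 genes looked up, 9 had a promoter in the table and 4 of these a match, the fourth being Il1rl1. The windows of Retnlg, Retnla, Epx, Gata1 and Siglecg held none. Of all 32851 promoters of this length, 25.4% held the motif on either strand. A match is a description of these letters and not a measured binding site.

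Il5ra, the specific chain of the interleukin-5 receptor and no part of the rule, was found in 5 of 184 PBS cells (2.72%, interval 0.888 to 6.23), with 7 UMIs in all and at most 2 in a cell. It was found in 4 of 17 EM cells (23.5%, 6.81 to 49.9), with 1 UMI each. In PBS neutrophils it was found in 1 of 484 cells (0.207%), which had a median of 1695.5 UMIs, and in T cells, which should lack it, in 3 of 3850 in PBS (median 4635 UMIs) and 1 of 4280 in EM (median 2325.5 UMIs). Its level was 38.6 CPM in the PBS and 232 CPM in the EM eosinophil-like cells, and 1.12 CPM in PBS neutrophils. After each cell was thinned to 500 UMIs, Il5ra remained in 2 PBS and 2 EM eosinophil-like cells, 1 neutrophil and 0 T cells. The eosinophil-like cells held 7 of the 15 Il5ra UMIs of the kept PBS cells (46.7%) and 4 of the 16 in EM (25.0%). Il5ra was therefore concentrated in these cells but seen in few of them.

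Alox15, a lipoxygenase abundant in mouse eosinophils, was found in 50 of 184 PBS cells (27.2%) and 4 of 17 EM cells (23.5%), with at most 4 and 7 UMIs in a cell. It was found in 0 of 484 PBS neutrophils, which allows up to 0.620% of cells with a UMI by the limit of 3 cells and 0.759% by the exact interval, and in 5 of 3850 PBS T cells. Its level was 369 CPM (286 to 469) in PBS and 754 CPM (401 to 1289) in EM. By the limit of 3 UMIs it was at least 109.8-fold higher in the PBS eosinophil-like cells than in neutrophils. The log2 ratio was 6.78, with an exact interval from 6.44. Of all Alox15 UMIs of the kept PBS cells, 61.5% lay in the 184 cells.

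Gata1, the transcription factor of eosinophil commitment, was found in 27 PBS cells (14.7%) and 5 EM cells (29.4%). It was found in 0 of 484 neutrophils, so its level of 209 CPM in PBS was at least 62.3-fold higher. Its EM level was 290 CPM (94.1 to 677), and 69.1% of the Gata1 UMIs of the kept PBS cells lay in the 184 cells. Prg2, the major basic protein of eosinophil granules, was found in 25 PBS cells (13.6%) at 204 CPM and in 6 EM cells (35.3%) at 464 CPM. It was found in 1 neutrophil with 1 UMI, a ratio of 182 with a log2 interval of 4.94 to 12.85. Il1rl1, the receptor of the alarmin interleukin-33, was found in 33 PBS cells (17.9%) at 265 CPM. In EM it was found in 1 cell, and in 9 of 484 neutrophils at 11.2 CPM. Of the Prg2 and Il1rl1 UMIs of the kept PBS cells, smaller parts lay in the 184 cells, 30.3% and 14.2%. In EM, with the basophil-marked cell counted, the 18 cells held 37.1% of Alox15, 19.0% of Prg2, 13.1% of Gata1 and 0.678% of Il1rl1 UMIs. Il1rl1 and Gata1 are no eosinophil genes alone, as EM basophil and mast cells outside the rule carried them in 68.7% and 19.6% of 163 cells.

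Other eosinophil genes were at or near 0. Epx, the eosinophil peroxidase, Prg3 and Ltc4s had 0 UMIs in both sets, and Ear1 had 0 in PBS and 1 in EM. Ear2 had 3 and Ear6 had 6 UMIs in PBS, with 0 for both in EM. Ear1, Ear2 and Ear6 are near-identical ribonuclease genes whose reads can be assigned to the wrong copy, so their values are uncertain. Counted over the 10 eosinophil genes outside the rule, 95 of 184 PBS cells (51.6%, 44.2 to 59.0) and 10 of 17 EM cells (58.8%, 32.9 to 81.6) had at least 1 UMI, against 33 of 484 neutrophils (6.82%). At 500 UMIs per cell the shares were 31.5%, 52.9% and 2.27%. This count did not set them apart from the 163 EM basophil and mast cells, of which 118 (72.4%, and 42.9% at 500 UMIs) had a UMI of the 10 genes, 112 of them with Il1rl1. Prg2 was found in 0 and Alox15 in 10 (6.13%) of those 163 cells. In all other PBS cells the 10 genes summed to 217 CPM, against 926 CPM in the PBS eosinophil-like cells. Yet 814 of 7572 other PBS cells, which were deeper, had 3 or more UMIs of them, against 17 of 184. A count of 3 or more thus did not set the PBS eosinophil-like cells apart from the rest of the library. Against neutrophils the label thus rested in PBS on Alox15, Prg2, Gata1 and Il1rl1, and in EM on Alox15, Prg2, Gata1 and Il5ra. These neutrophils were all from the PBS library. At 500 UMIs per cell, Prg2 was found in 4, Alox15 in 3, Il5ra in 2 and Gata1 in 1 of 17 EM cells. Il5ra and Gata1 thus lay below the limit of 3 cells in EM. Against basophils and mast cells the label rested on Prg2 and Alox15. Mcpt8, Cd200r3, Fcer1a, Ms4a2 and Cpa3 do not bear on this, since their sum chose the 163 cells and set the marked EM cell aside. Over all 15 basophil and mast cell markers the 17 EM cells held 522 CPM, with 3 or more UMIs in 2 cells. The PBS eosinophil-like cells held 149 CPM. In all other EM cells, with the 163 basophil and mast cells among them, the sum was 843 CPM. There, 215 of 7949 cells had 3 or more UMIs. The label held for the cells as a set, since many single PBS cells showed none of the 10 genes.

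PBS cells without Ccr3 and Siglecf also carried these other eosinophil genes. Alox15 was at 397 CPM in the 62 PBS cells with Ccr3 or Siglecf and at 354 CPM in the 122 without. Gata1 was at 222 and 203 CPM and Il1rl1 at 334 and 228 CPM. Prg2 went the other way, at 95.3 CPM with and 262 CPM without. Retnla, another resistin family gene, was at 937 CPM with and 135 CPM without. Its 75 UMIs came from 10 cells, 1 of which held 19. The 122 cells without Ccr3 and Siglecf also included the only 2 PBS cells with Csf3r UMIs, 12 in one and 3 in the other. Each of these 2 cells had 37 UMIs of neutrophil list genes and none of the eosinophil list. By these counts they carried neutrophil and not eosinophil genes, and leaving them out changed the numbers of genes past 4-fold by less than 1.5 times.

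The PBS cells carried neutrophil list genes at a far lower level than neutrophils, but not at 0. Counted over the 22 such genes outside the rule, 157 of 184 PBS cells (85.3%, and 71.7% at 500 UMIs) had at least 1 UMI, against 60.8% of PBS T cells (14.2% at 500 UMIs) and 484 of 484 neutrophils. There were 91 PBS cells with 3 or more and 6 with 10 or more UMIs, the 2 cells with Csf3r among the 6, against 477 of 484 neutrophils with 10 or more. The sum was 3428 CPM in the PBS cells, 1358 CPM in all other PBS cells and 27019 CPM in neutrophils. Of the 622 UMIs in the PBS cells, Il1r2 gave 152, Mxd1 117, G0s2 99 and Acod1 55, while Ly6g, Camp, Ltf and Stfa2l1 were at 0.

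Marker genes of other classes were also present in the PBS cells. The 7 T cell markers outside the rule, all detected, summed to 303 CPM, with 3 or more UMIs in 5 cells, against 3331 CPM in all other PBS cells. The 9 monocyte and macrophage markers outside the rule, all detected, summed to 997 CPM, with 3 or more UMIs in 18 cells, against 4865 CPM. Adgre1, the F4/80 gene that eosinophils also express, accounted for 101 of those 181 UMIs. Plasma cell markers summed to 496 CPM against 727 CPM in other cells, with 88 of the 90 UMIs from Xbp1, and microglia markers to 309 CPM against 467 CPM. Basophil and mast cell markers stood above other cells, at 149 against 58.4 CPM, with 13 of 27 UMIs from Hdc and 10 from Il4 and 9 of 15 markers at 0, among them Mcpt8, Fcer1a, Ms4a2 and Cpa3. Non-immune markers were also above other cells, at 226 against 153 CPM. The part of these markers in the comparison with neutrophils was not tested.

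**Figure D2:**
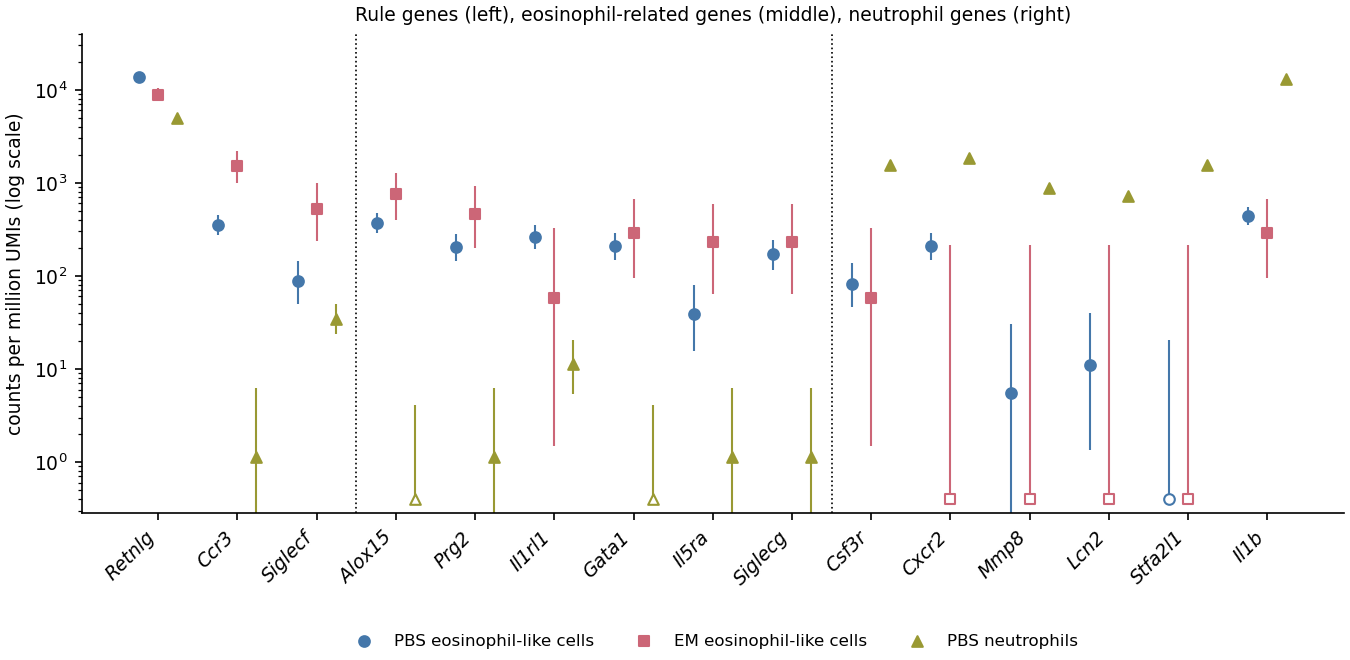
Levels in CPM (vertical log axis) of rule genes, eosinophil-related genes and neutrophil genes in PBS eosinophil-like cells (blue circles, 184 cells), EM eosinophil-like cells (red squares, 17 cells) and PBS neutrophils (green triangles, 484 cells). Bars are 95% Poisson intervals, cut at the bottom of the plot, and open symbols at the bottom stand for 0 UMIs. Alox15 and Gata1 have 0 UMIs in neutrophils, and Csf3r and Cxcr2 lie at 1535 and 1853 CPM there.

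The comparison with neutrophils asked how far the PBS eosinophil-like cells, which share high Retnlg with them, differ in genes outside the rule. The 484 neutrophils were PBS cells with 5 or more UMIs of S100a8+S100a9 and the same limits on Cd3 and C1q genes, and carried Retnlg at 5028 CPM. Of 3963 genes measured, 332 were more than 4-fold higher in the eosinophil-like cells (8.38%) and 258 more than 4-fold lower (6.51%). The median log2 ratio over all genes was 0.54, and after centring on it the numbers were 153 and 403, so higher genes were 56.3% of the total before centring and 27.5% after. Among genes with at least 50 UMIs they were 118 and 248. Malat1, a nuclear RNA, stood at 8134 CPM in the eosinophil-like cells and 2819 CPM in neutrophils, and the mitochondrial share at 1.56% and 2.15% of UMIs. The part of RNA content and depth in these numbers was not tested.

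Neutrophil genes were lower almost throughout: 16 of the 19 measured were past 4-fold and none was past 4-fold higher, with a median log2 ratio of -3.99. Mmp8, a granule collagenase, had 1 UMI in the eosinophil-like cells and 783 in neutrophils (log2 ratio -7.32, interval -12.62 to -4.83). Stfa2l1, a cysteine protease inhibitor, had 0 and 1377 UMIs, at least 93.4-fold lower by the limit of 3 UMIs. Its log2 ratio was -6.55, with an exact interval up to -6.24. Csf3r was at 82.7 and 1535 CPM, with all of its 15 UMIs in the 2 cells named above. Cxcr2 was at 209 and 1853 CPM (log2 -3.15) and was spread over 26 cells. Il1r2, the decoy receptor of interleukin-1, at 838 and 2935 CPM, Mxd1 (log2 -1.14) and G0s2 (log2 0.56), an inhibitor of lipolysis, did not pass 4-fold.

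Genes of secreted signals and of chemoattractant receptors also differed. Over all genes 8.38% were past 4-fold higher and 6.51% lower. Among 10 measured cytokine genes 5 were past 4-fold lower and none higher. Il1b, the main inflammatory interleukin-1, was at 441 CPM in the eosinophil-like cells and 13018 CPM in neutrophils (log2 -4.88), and Tnf at 71.6 and 1764 CPM (log2 -4.62). Among 10 chemokine genes 6 were lower and 1 higher. Cxcl10, a ligand for T cell receptor Cxcr3, was at 71.6 and 1390 CPM, and Cxcl2, a chemokine for neutrophils, at 1411 and 20075 CPM. Ccl9 was higher, at 209 and 24.7 CPM (log2 3.09), and Ccl6, at 4921 and 1560 CPM (log2 1.66), was found in 170 of the 184 cells. Among 8 receptors for chemoattractants other than Ccr3, 5 were lower, with the formyl peptide receptors Fpr2 (2 against 604 UMIs, log2 -5.94, interval -8.99 to -4.08) and Fpr1 (1 against 236 UMIs, log2 -5.59, interval -10.90 to -3.09) at the low end. C3ar1, the receptor of complement C3a, was higher at 127 and 11.2 CPM (log2 3.50).

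Lipid mediator genes split by enzyme. Of 9 measured, 3 were higher and 1 was lower, beside 8.38% and 6.51% of all genes. Alox15, Lta4h, the enzyme that makes leukotriene B4 (160 and 29.2 CPM, log2 2.45), and Pla2g7, which degrades platelet-activating factor (1896 and 361 CPM, log2 2.39), were higher. Pla2g7 was found in 135 of 184 cells. Ptgs2, the inducible cyclooxygenase, had 2 UMIs in the eosinophil-like cells and 1445 in neutrophils (log2 -7.20, interval -10.25 to -5.34). Of 11 granule and oxidase genes, Prg2 and Cybb, the catalytic subunit of the phagocyte oxidase (1659 and 209 CPM, log2 2.99), were higher and 5 neutrophil genes lower, Lyz2 among them.

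Type I interferon response genes were lower than in neutrophils. Of 22 measured, 10 were past 4-fold lower and 0 higher, 21 had a log2 ratio below 0, and the median was -1.96 against 0.54 over all genes. Slfn4, an interferon-induced gene of myeloid cells, was at 171 and 4759 CPM (log2 -4.80), with 29 of its 31 UMIs in the eosinophil-like cells in 1 cell. Oas3 had 1 and 137 UMIs (log2 -4.80, interval -10.11 to -2.30). None of 14 antigen presentation genes and none of 16 hypoxia and glycolysis genes passed 4-fold in either direction. Over all genes 8.38% were higher and 6.51% lower.

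Single genes at the top of the comparison were Retnla (75 against 1 UMI, log2 8.53, interval 6.0 to 13.85), Bank1, Zfp704, Prg2, Fgfr1, a fibroblast growth factor receptor (101 against 3 UMIs), and Meis1, a homeobox transcription factor (33 against 1 UMI). Siglecg, an inhibitory lectin of the Siglec family, had 31 UMIs in 28 eosinophil-like cells and 1 UMI in neutrophils (log2 7.25, interval 4.67 to 12.60), while its relatives Siglece (log2 -1.16) and Cd33 (log2 -1.52) were below equality. Adgre1 was at 557 and 80.7 CPM (log2 2.79). Bcl2, a survival gene, was at 193 and 39.2 CPM (log2 2.30), the only one of 13 survival genes past 4-fold. Over all genes 8.38% were past 4-fold higher, so this count does not set survival genes apart.

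**Figure D3:**
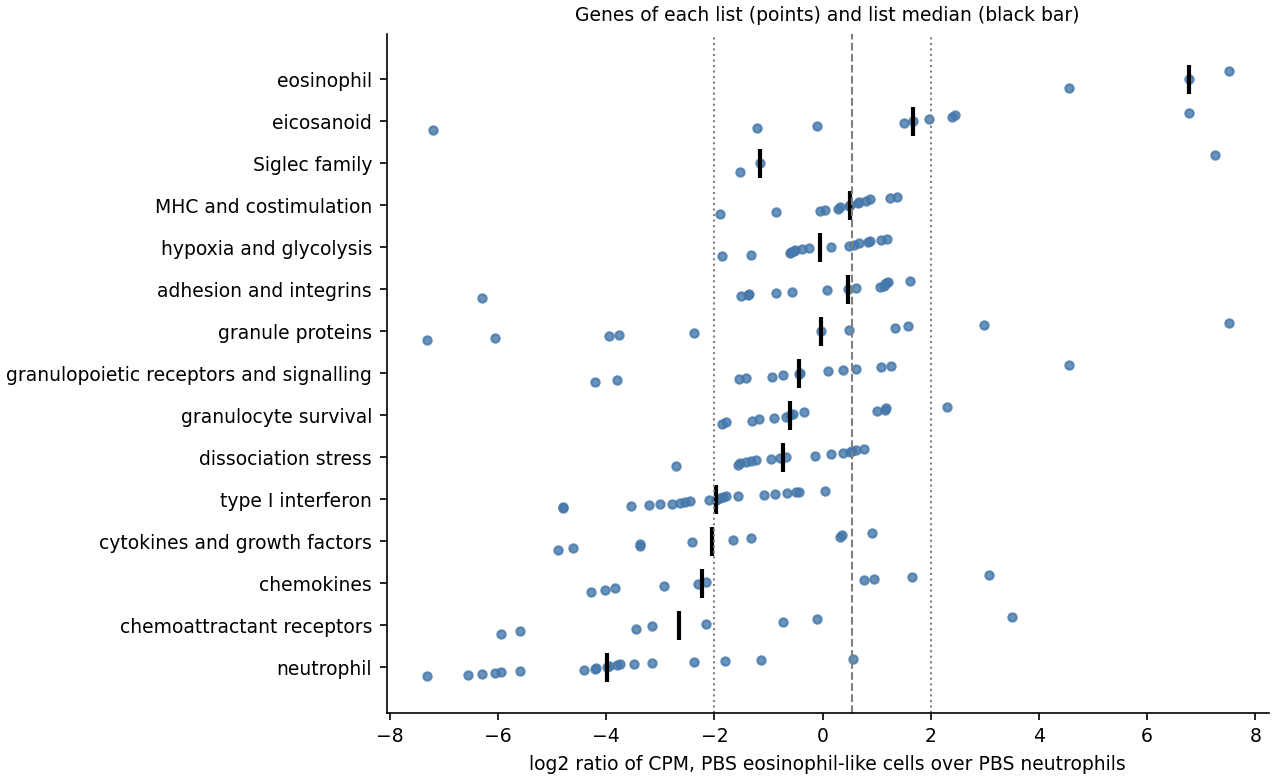
The log2 ratio of CPM in PBS eosinophil-like cells over PBS neutrophils (horizontal axis) for each measured gene (points) of 15 gene lists, without the rule genes. Black bars are list medians, the dashed line is the median of all genes (0.54) and the dotted lines mark 4-fold. The neutrophil list has its median at -3.99 and the type I interferon list at -1.96, and genes with 0 UMIs in one set are drawn at the limit of 3 UMIs.

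The comparison of the 17 EM with the 184 PBS eosinophil-like cells asked whether the few cells found after EM had the same profile. Of 2193 genes measured, 24 were more than 4-fold higher in EM (1.09%) and 83 more than 4-fold lower (3.78%), and for 157 more the counts were too low to give a ratio. The median log2 ratio was -0.11. The EM set is shallow, and 3 UMIs in it already stand for 174 CPM. Genes were taken in by their UMIs summed over the EM set (17246 UMIs) and the PBS set (181454). A gene found mainly in EM thus needed a higher CPM than a gene found mainly in PBS. The numbers higher and lower therefore cannot be weighed against each other. Intervals were not used for them: Bcl2l11, at 1 against 44 UMIs, counted as lower with an interval of -7.40 to 0.49. Ccl4, at 0 against 80 UMIs, did not, as the limit of 3 UMIs put its log2 ratio at -1.34. The numbers moved with the processing: 38 genes were lower when all cells had at least 1000 UMIs, 43 without cells carrying markers of another class, and 134 when each cell had equal weight. With Ccr3 or Siglecf required of every cell, 9 genes were higher and 71 lower.

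The identity genes were present in both libraries. Alox15 was 2.04-fold higher in EM (log2 interval 0.05 to 1.90), with 7 of its 13 UMIs in 1 cell, while the log2 intervals of Prg2 (-0.13 to 2.31), Gata1 (-1.23 to 1.82) and Siglecg (-1.52 to 1.94) spanned equality. Ccl6 (4117 against 4921 CPM, in 16 of 17 EM cells) and Pla2g7 (1276 against 1896 CPM, in 14 of 17) were abundant in both. Il1rl1 had 1 UMI in EM and 48 in PBS, a log2 ratio of -2.19 whose interval (-7.52 to 0.36) spanned equality. Siglece was higher in EM, at 464 against 110.2 CPM (log2 2.07, interval 0.68 to 3.32).

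Higher in EM were the surface antigen Ly6c2, with 17 UMIs in 8 of 17 cells against 6 UMIs in 6 of 184 (log2 4.90, interval 3.49 to 6.53), and Ifi27l2a, an interferon-induced gene, with 21 UMIs in 9 cells against 10 in 10 (log2 4.47, 3.32 to 5.72). Ifitm3, an interferon-induced membrane protein, had 12 UMIs in 5 EM cells against 14 in 8 PBS cells (log2 3.17, 1.93 to 4.39). Cd69, an early activation antigen, had 10 UMIs in 3 EM cells, 8 of them in 1 cell (log2 3.02). Lyz2, the lysozyme of macrophages, had 13 UMIs in EM, all in 1 cell, so it was listed at 0 in every other EM cell. The 9 monocyte and macrophage markers, with Ly6c2 among them, summed to 2029 CPM in the EM cells against 997 CPM in PBS. Ly6c2 gave 17 and Adgre1 15 of the 35 UMIs in EM, and 6 and 101 of the 181 in PBS. The sum is therefore not separate from the Ly6c2 result. Mrc1, Cd68, Ms4a7, Arg1 and Ccr2 were at 0 in EM. The part of such markers in the other higher genes was not tested.

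The same genes were higher in the rest of the EM library too. In all other cells of the PBS and EM libraries Ly6c2 stood at 395 and 2270.2 CPM, Ifi27l2a at 141 and 1399 CPM, Ifitm3 at 237 and 515 CPM and Cd69 at 109 and 580 CPM. Their levels in the EM eosinophil-like cells were 986, 1218, 696 and 579.8 CPM. RNA released from other cells can enter any droplet or well, and its part in these levels was not tested. Of 11 measured type I interferon genes, 9 were higher in the EM cells and 1, Ifitm3, was past 4-fold, with a median log2 ratio of 0.89 against -0.11 over all genes. Rsad2, an antiviral enzyme, had 16 UMIs in 8 of 17 EM cells (928 CPM) and 54 UMIs in 8 of 184 PBS cells (298 CPM), 40 of them in 1 cell. Oasl2 had 16 UMIs in 11 EM cells (928 CPM) and 85 in 47 PBS cells (468 CPM). Isg15, too low in the sum of both sets for the list count, had 8 UMIs in 6 EM cells and 9 in 9 PBS cells. In all other PBS and EM cells Rsad2 was at 50.3 and 157 CPM, and Oasl2 at 68.3 and 188 CPM, both below the EM eosinophil-like cells. Slfn4 had 9 UMIs in EM, all in 1 cell.

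Lower in EM was Il1r2, with 0 UMIs against 152 in PBS, at least 4.82-fold lower by the limit of 3 UMIs. Its log2 ratio was -2.27, and the exact interval reaches -1.95, which is less than 4-fold. Antxr2, an anthrax toxin receptor gene, had 1 against 198 UMIs (log2 -4.23, interval -9.54 to -1.74) and G0s2 had 1 against 99 (log2 -3.23, -8.55 to -0.72). Xbp1, a transcription factor needed for eosinophil development, had 1 against 88 UMIs (log2 -3.06, -8.38 to -0.55). Stat3 had 4 against 205 UMIs (log2 -2.28, -4.17 to -0.91). Il1r2 was also lower in the rest of the EM library, at 59.6 CPM against 321 CPM in PBS. Antxr2 differed less there, at 87.2 and 50.2 CPM, as did Xbp1, at 194 and 140.0 CPM.

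**Figure D4:**
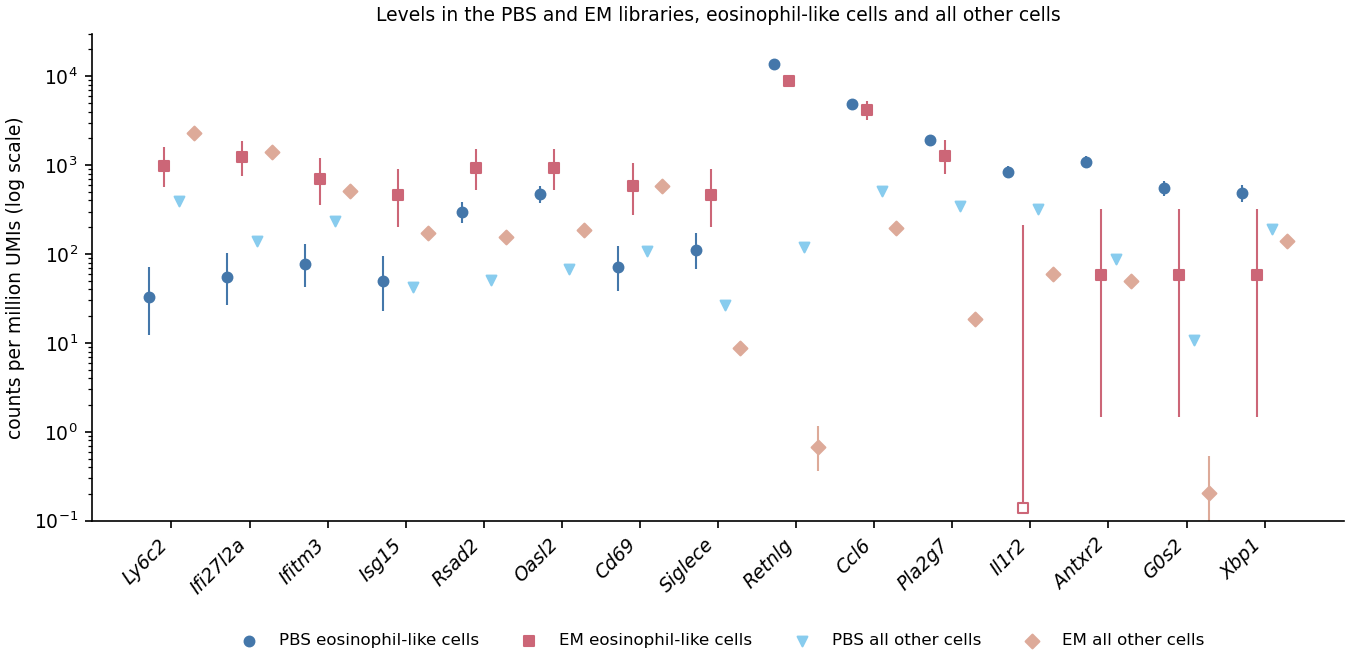
Levels in CPM (vertical log axis) of genes compared between the libraries, in PBS (blue circles, 184 cells) and EM (red squares, 17 cells) eosinophil-like cells and in all other kept PBS (light blue triangles) and EM (light red diamonds) cells. Bars are 95% Poisson intervals and the open square at the bottom stands for 0 UMIs. Ly6c2, Ifi27l2a and Ifitm3 are higher in EM in both kinds of cells, and Il1r2 has 0 UMIs in the EM eosinophil-like cells.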

How the data were processed

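Single-cell RNA sequencing was done on sorted immune cells of mouse glioma, 1 library per treatment. The values used are the authors' deposited raw UMI counts for each gene and barcode, which had not been normalized. CASAVA 1.8, STARsolo and the mm10 genome are named in the submitters' processing notes. Annotation and cell calling were not given in the sources used here. Gene positions came from GENCODE vM21, in which 31184 of 31253 gene identifiers were found.

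Cells were kept if they had 500 UMIs, 200 genes and no more than 20% mitochondrial UMIs. The members and gene lists were chosen with earlier results of these data known. UMIs were summed per library and cell set, expressed as CPM, and compared as log2 ratios without a pseudocount, with Python 3.11.15, numpy 2.4.6, scipy 1.17.1 and pandas 2.3.3. Genes needed 20 UMIs over both sets and 50 CPM in the higher set, and the 11 rule genes were left out. A gene with 0 UMIs was put at a limit of 3. Shares carry exact Clopper-Pearson intervals, levels exact Poisson intervals and ratios exact conditional binomial intervals. No test was run, and the steps were tested on simulated data.

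Named genes were the rule genes, the eosinophil, neutrophil and basophil lists, the 15 highest and 15 lowest ratios past 4-fold against neutrophils (10 and 10 between EM and PBS) and the 2 highest and 2 lowest of each list, printed in part. Pla2g7, Cxcl2, Isg15, Oasl2, Siglece, Xist and Ddx3y, among others outside these, were named after their values were seen. Scrublet, in scanpy 1.11.5, called 0 PBS and 4 EM cells (0.0502%) as doublets, too few for it to have worked, so no doublets were removed. Alternatives changed the rule, the depth and mitochondrial limits, the gene limits, the scaling and the cells left out. Some genes that the naming rule took are not reported here.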

Additional observations from a re-analysis of the deposited data

How the results depend on the processing

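No paired analysis was possible because each treatment had 1 library, and for the same reason no replicate could be left out. No named gene past 4-fold changed direction under any alternative run. With 1000 UMIs or more per cell the share of eosinophil-like cells was 1.03% in PBS and 0.112% in EM, and the number of genes lower in EM was 38. With Ccr3 or Siglecf required, the PBS share was 0.799%, the EM share 0.188% and the number of genes higher in EM was 9. With a sum of 5 or more required, 0% of the EM cells were basophil-marked. Without cells carrying markers of another class, 43 genes were lower in EM, and with equal weight per cell 134. Among genes with 50 UMIs or more, 118 were higher than in neutrophils and 2 higher in EM. Centring on the median ratio gave 153 genes higher and 403 lower than in neutrophils, and moved the higher share from 56.3% to 27.5%. The cause of these shifts was not tested. The median of the type I interferon list between EM and PBS ran from 0.49 to 1.72 over 13 alternatives, and the share of EM cells with Il5ra from 11.1% to 25.0% over 10. Leaving out the cells with Csf3r UMIs, or the barcodes found in both libraries, was chosen after seeing the data. The comparison of basophil-marked with other EM cells was not run, since 1 cell was marked. A gene at 0 UMIs in EM could lie anywhere up to the limit of 174 CPM, and genes at 1 or 2 UMIs there have wide intervals.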
